A study of Mus musculus with 12 samples.

Results

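The 9 interferon-stimulated genes described here are Ifit1, Ifit3, Irf7, Isg15, Bst2, Ifitm3, Ifi27, Irf9 and B2m, a list given by name. All 9 have a row among the 13951 genes of the deposited table, and all 9 are among the 13858 genes tested, those with a mean abundance of at least 1. The libraries hold polyadenylated RNA of the right hippocampus, ventral end, from 12 mice of strain C57BL/6J, aged 12 to 16 weeks. There are 4 groups of 3 mice, formed by genotype, wild-type (WT) or Angelman syndrome (AS), and by sex. In people Angelman syndrome follows when the maternal allele of UBE3A, the gene of a ubiquitin ligase, does not act in the brain. The labels do not give the mutation of the AS mice. No treatment or infection is named in the labels, and replicate numbers only name the mice.

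Interferons are secreted proteins that a cell releases when its sensors meet foreign nucleic acid. Type I interferon binds the receptor formed by Ifnar1 and Ifnar2 and activates the kinases Jak1 and Tyk2, after which a complex that holds Stat2 and Irf9 binds interferon-stimulated response elements in the promoters of many antiviral genes. In the brain most cell types can respond, and interferon-stimulated genes are also known to be induced in microglia, choroid plexus and vessel cells during infection, injury and ageing.

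RefSeq promoter windows on GRCm38.p6, from 250 bases before to 50 bases after each transcript start, were available for 8 of the 9 genes, and Ifi27 had none. They were searched on both strands for the response element core GAAANNGAA and for the gamma-activated sequence TTCNNNGAA, a motif known from interferon gamma responses. The response element core occurred in the windows of Ifit1, Ifit3, Isg15, Bst2, Ifitm3 and B2m, which are 6 of the 8 genes. It occurred in 9.76% of the 27025 genes of the whole promoter table (8.56% of its 32851 windows) and in 20 of the 56 other tested interferon pathway genes with a window (35.7%). The gamma-activated sequence occurred in 2 of the 8, Bst2 and Ifitm3, in 14 of the 56 other pathway genes and in 9.55% of all genes, and in Bst2 and Ifitm3 it overlapped a response element core. Neither motif was found in the window of Irf7 or in the pair of windows listed for Irf9. These matches are descriptions of letters and not binding sites.

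The stretches around the matches are shown because they are a feature of 6 of the 9 genes that does not come from the expression values. Each is read 5′ to 3′ on the strand of its gene, and capitals mark every match of the response element core on either strand, with overlapping matches run together.
Ifit1, chr19:34640755-34640838, plus strand: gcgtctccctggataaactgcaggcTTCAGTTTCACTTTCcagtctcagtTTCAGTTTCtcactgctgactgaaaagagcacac
Ifit3, chr19:34583349-34583460, plus strand: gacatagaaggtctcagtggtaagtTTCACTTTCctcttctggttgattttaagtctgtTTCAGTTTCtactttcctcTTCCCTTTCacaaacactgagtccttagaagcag
Isg15, chr4:156200851-156200921, minus strand: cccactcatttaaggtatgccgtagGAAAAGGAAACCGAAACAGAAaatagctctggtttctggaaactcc
Bst2, chr8:71537563-71537627, minus strand: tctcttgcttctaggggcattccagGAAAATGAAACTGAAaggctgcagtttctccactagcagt
Ifitm3, chr7:141010695-141010767, minus strand: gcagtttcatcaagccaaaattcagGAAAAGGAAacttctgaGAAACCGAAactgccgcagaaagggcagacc
B2m, chr2:122147523-122147581, plus strand: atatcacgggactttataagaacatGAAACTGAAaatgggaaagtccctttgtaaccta
Ifit1, Ifit3 and Isg15 each held 3 matches, Bst2 and Ifitm3 held 2, and B2m held 1. The matches lay 109 to 76 bases before the start in Ifit1, 155 to 94 in Ifit3, 78 to 58 in Isg15, 130 to 116 in Bst2 and 139 to 131 in B2m. Those of Ifitm3 lay after the start, from base 3 to base 28.

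Levels are given as log2(abundance + 1), from the deposited normalized values read as natural logs of an RSEM abundance plus 1. If the deposited logs were of base 2, every log2 difference would shrink to 0.693 times its printed size. The read depth is unknown, because the files hold no counts. The library labelled WT female replicate 1 had an Xist level of 0.35, within the 0.17 to 0.52 of the males and far from the 6.00 to 6.45 of the other 5 females, so results that rest on its sex label are also given without it. Neuron markers (mean level 8.07 to 8.26) and hippocampus markers (4.68 to 4.96) were at similar levels in all 12 libraries.

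One library carried the interferon-stimulated transcripts at a level of its own. In AS female replicate 2 all 9 genes were at their highest level of the 12 libraries, where 5.9% of all genes tested were highest in that library. Over the 12 libraries the share of all genes that were highest in a library ran from 5.90% to 14.4%. In 7 of the 9 genes the level in AS female replicate 2 was more than 1 log2 unit above the median of the other 11 libraries, against 1.15% of all genes tested. This height, the level in AS female replicate 2 minus the median of the other 11 libraries, had a median of 1.46 over the 9 genes and of -0.02 over all genes. The genes were listed with earlier results of these data known, so these heights are a description and carry no test. In bulk tissue a change in the number of cells of a type and a change in RNA per cell cannot be told apart.

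**Figure D1:**
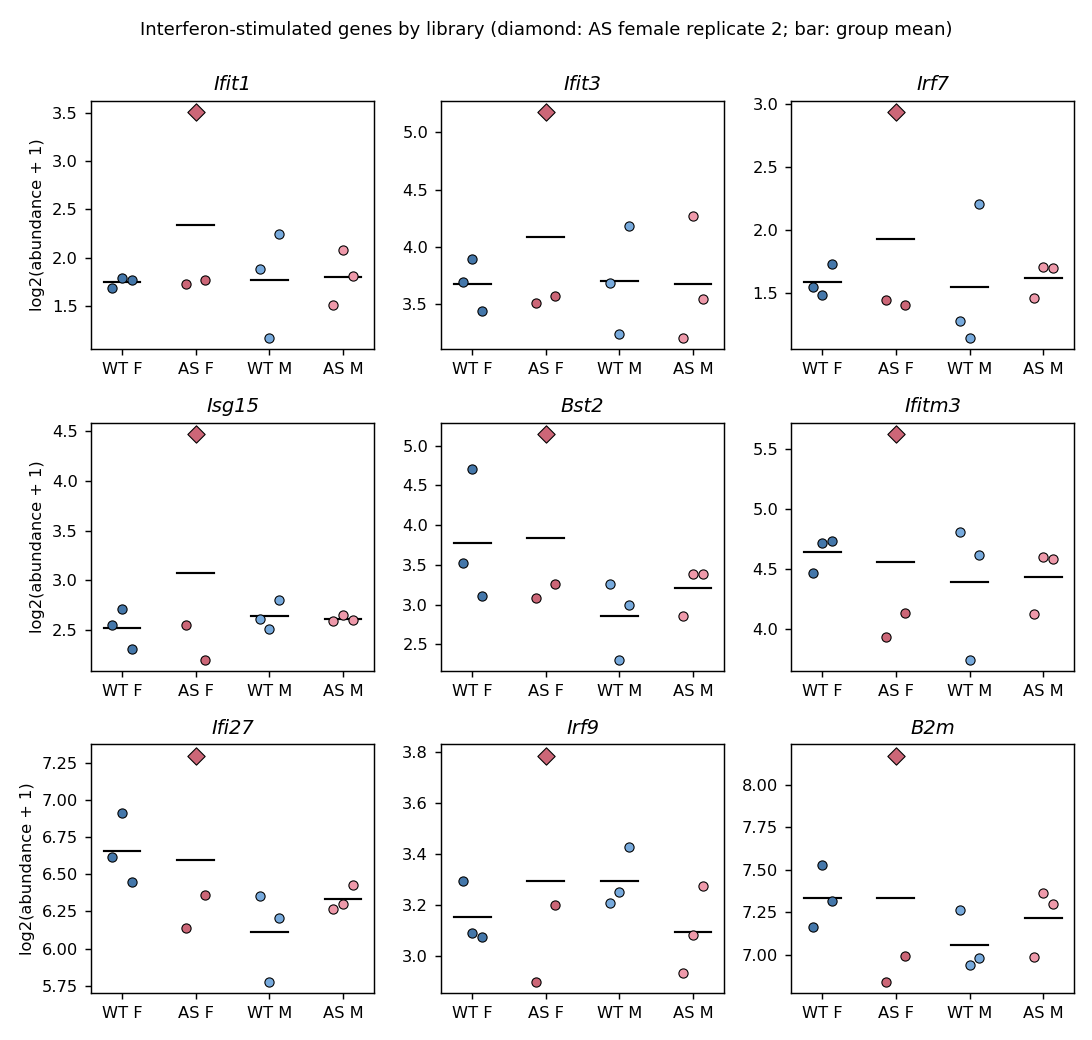
Level of each of the 9 interferon-stimulated genes, as log2(abundance + 1), in every library by group (F, female; M, male); points are single mice, bars are group means, and each vertical axis has its own range. The diamond, AS female replicate 2, is the highest point in all 9 panels, and the other AS females lie within or below the range of the WT females.

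The antiviral effectors included the largest heights in AS female replicate 2. Isg15, a ubiquitin-like protein that is attached to other proteins (ENSMUSG00000035692, chromosome 4, 156199424 to 156200818, minus strand, GRCm38), had levels of 2.55, 2.71 and 2.31 in WT females 1 to 3 and of 2.55, 4.47 and 2.20 in AS females 1 to 3. Its levels were 2.62, 2.51 and 2.80 in the WT males and 2.59, 2.65 and 2.60 in the AS males. The 11 other libraries thus lay within 0.60 of each other, and AS female replicate 2 lay 1.67 above the highest of them, the widest such gap among the 9 genes. On the abundance scale Isg15 was 21.2 in that library and had a median of 5.01 in the others, a ratio of 4.22.

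Ifit1, whose protein binds viral RNA that lacks the host's cap methylation (ENSMUSG00000034459, chromosome 19, 34640871 to 34650009, plus strand), was at 1.68, 1.79 and 1.77 in the WT females and at 1.72, 3.52 and 1.77 in the AS females. In males it was at 1.88, 1.17 and 2.25 (WT) and at 1.51, 2.08 and 1.81 (AS). Outside AS female replicate 2 the female libraries were nearly level, while the male libraries were spread over about 1 log2 unit. The abundance ratio of AS female replicate 2 to the median of the others was 4.33, the highest of the 9 genes.

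Ifit3, a partner of Ifit1 from the same gene cluster (ENSMUSG00000074896, chromosome 19, 34583531 to 34588731, plus strand), was at 3.69, 3.89 and 3.44 in the WT females and at 3.51, 5.18 and 3.57 in the AS females. The male levels were 3.68, 3.23 and 4.18 in WT and 3.20, 4.27 and 3.54 in AS. As for Ifit1, WT male replicate 3 and AS male replicate 2 were the highest of the males and WT male replicate 2 and AS male replicate 1 the lowest. Ifit3 has a near-identical neighbour, Ifit3b, and reads of the pair may have been divided between them in the deposited abundances.

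Bst2, or tetherin, a membrane protein that holds budding enveloped viruses to the cell surface (ENSMUSG00000046718, chromosome 8, 71534255 to 71537456, minus strand), was the only one of the 9 with another library, WT female replicate 2, more than 1 log2 unit above the median of the rest. The WT females had levels of 3.52, 4.71 and 3.11, and the AS females had levels of 3.09, 5.15 and 3.26. The males were at 3.26, 2.31 and 3.00 in WT and at 2.86, 3.39 and 3.39 in AS. AS female replicate 2 was 1.89 above the median of the others, the largest log2 height of the 9, and 0.44 above WT female replicate 2.

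Ifitm3, which blocks the fusion of viruses in endosomes (ENSMUSG00000025492, chromosome 7, 141009586 to 141010770, minus strand), was at 4.47, 4.72 and 4.74 in the WT females, against 3.93, 5.63 and 4.13 in the AS females. Its male levels were 4.81, 3.75 and 4.62 in WT and 4.13, 4.60 and 4.59 in AS. AS female replicates 1 and 3 were below all 3 WT females, while replicate 2 was above them. Ifitm3 belongs to a family of close relatives whose reads can be shared.

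Ifi27, a small interferon-inducible membrane protein (ENSMUSG00000064215, chromosome 12, 103434211 to 103440239, plus strand), showed the same order in females, with levels of 6.62, 6.91 and 6.44 in WT and of 6.14, 7.30 and 6.36 in AS. In males the levels were 6.35, 5.78 and 6.20 in WT and 6.27, 6.30 and 6.43 in AS. The height in AS female replicate 2 was 0.94, an abundance of 156 against a median of 80.8.

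The transcription factors Irf7 and Irf9 differed in their height. Irf7, the transcription factor that drives further type I interferon transcription (ENSMUSG00000025498, chromosome 7, 141262706 to 141266481, minus strand), was at 1.55, 1.48 and 1.73 in the WT females and at 1.44, 2.94 and 1.41 in the AS females. It was at 1.28, 1.14 and 2.21 in the WT males and at 1.46, 1.71 and 1.70 in the AS males. AS female replicate 2 had an Irf7 abundance of 6.68, which was 3.72 times the median of the others, and WT male replicate 3 came next with 3.61.

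Irf9, the DNA-binding subunit of the complex that binds response elements (ENSMUSG00000002325, chromosome 14, 55603571 to 55610030, plus strand), had the smallest height, 0.59. Its levels were 3.29, 3.09 and 3.08 in the WT females, 2.90, 3.79 and 3.20 in the AS females, 3.21, 3.25 and 3.43 in the WT males and 2.93, 3.08 and 3.27 in the AS males. AS female replicate 2 was 0.36 above the next library, WT male replicate 3.

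B2m, the light chain of major histocompatibility complex (MHC) class I (ENSMUSG00000060802, chromosome 2, 122147686 to 122153083, plus strand), was the most abundant of the 9. The WT females had levels of 7.16, 7.53 and 7.32 and the AS females had levels of 6.84, 8.17 and 6.99. Males had 7.26, 6.94 and 6.98 in WT and 6.98, 7.36 and 7.30 in AS. The abundance in AS female replicate 2, 287, was 2.02 times the median of the other libraries, 142.

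Among the other 11 libraries the genes also varied, by smaller amounts. Ranked from lowest (1) to highest (12) and averaged over the 9 genes, WT female replicate 2 came to 8.78, AS male replicate 2 to 8.22 and WT male replicate 3 to 7.89. WT male replicate 2, which was lowest of all for 5 of the 9 genes, had a mean rank of 2.22, AS female replicate 1 of 2.89 and AS male replicate 1 of 3.22. High and low libraries thus occurred in both genotypes. The median height over the remaining libraries stayed between -0.45 (WT male replicate 2) and 0.21 (WT male replicate 3) in these 11, against 1.46 in AS female replicate 2.

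**Figure D2:**
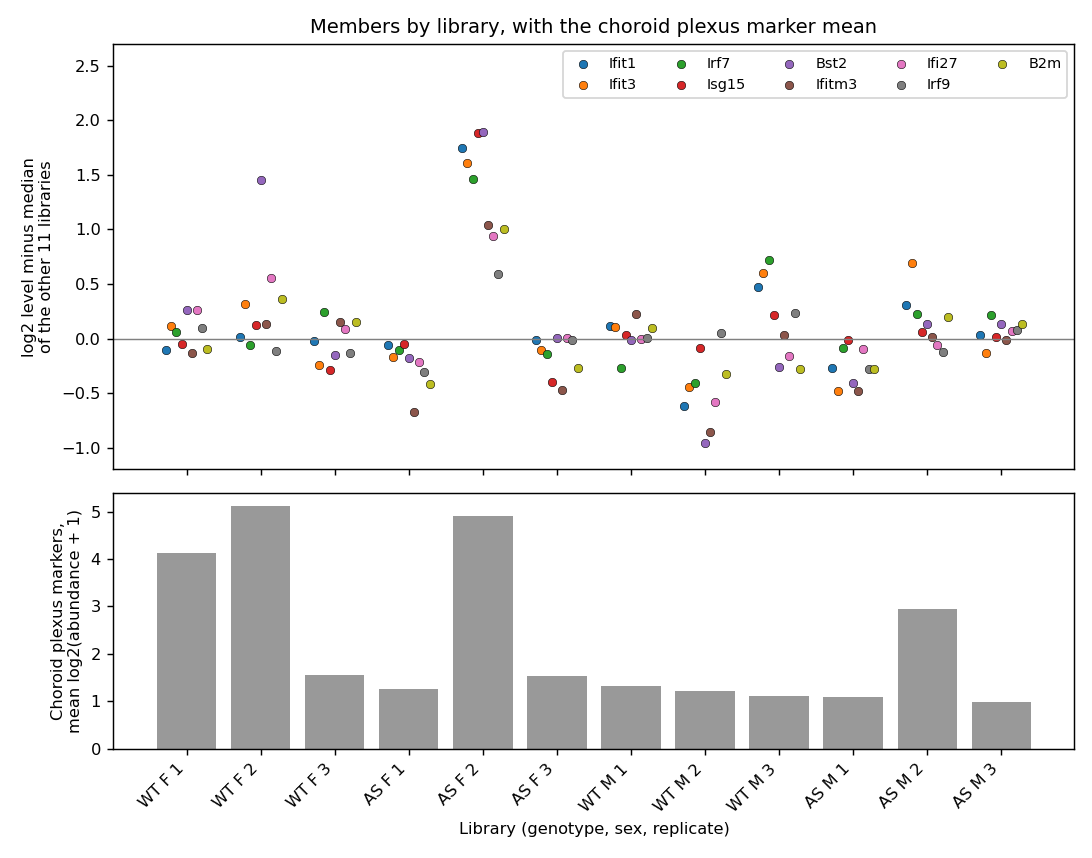
Upper panel, level of each of the 9 genes in each library minus its median in the other 11 (log2 units, 1 colour per gene); lower panel, mean level of the 12 choroid plexus markers in the same libraries. AS female replicate 2 has all 9 points above 0.5 in the upper panel, and WT female replicate 2, with a choroid plexus mean of 5.13, has Bst2 above 1.

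Choroid plexus markers were high in 4 libraries, AS female replicate 2 among them. The 12 choroid plexus markers, all with a row, averaged 5.13 in WT female replicate 2, followed by AS female replicate 2 with 4.91, WT female replicate 1 with 4.13 and AS male replicate 2 with 2.94, and they averaged 0.99 to 1.55 in the other 8 libraries. Their summed abundance ran from 104 to 3638 in WT females, from 30.8 to 3483 in AS females, from 21.3 to 59.6 in WT males and from 15.9 to 663 in AS males. None of the 12 markers was highest in AS female replicate 2. WT female replicates 1 and 2 and AS male replicate 2 also held these markers at high levels. The median heights of the 9 interferon-stimulated genes in them were 0.06, 0.13 and 0.13. In WT female replicate 2 the highest was 1.45, for Bst2. That library came next after AS female replicate 2 for Bst2, Ifi27 and B2m.

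Microglia and macrophage markers, of which 10 of 12 had a row, had their highest mean level, 4.63, in AS female replicate 2. It was 4.35 to 4.59 in the other libraries. Their summed abundance was 294 in AS female replicate 2, and it ran from 240 to 277 in WT females, from 246 to 294 in AS females, from 243 to 262 in WT males and from 237 to 263 in AS males. Of these 10 markers 5 were highest in AS female replicate 2, where 5.9% of all genes tested were highest in that library. Endothelial markers had their highest mean there too (3.27, range 2.81 to 3.27), with 2 of 10 markers highest, and meningeal fibroblast markers were at 3.44 in a range of 2.11 to 3.51, with 2 of 8 highest. No lymphocyte marker of the 8 listed has a row, and they were not analysed here. The deposited table has no zeros, so no marker with a row was at 0. The part of these markers in the height of the 9 genes was not tested.

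The other genes of the pathway, taken from lists by role, showed where in the pathway that library stood apart. Of 84 listed genes 68 had a row and 67 were tested. AS female replicate 2 was the highest library for 42 of the 67, more than 1 log2 unit above the median of the others for 16, and above that median for 61, with a median height of 0.57. The background shares are those given above, 5.9% for the highest level and 1.15% for a height over 1.

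Most receptors and kinases were near the other libraries, but Ifnar2 was above all of them, and Ifngr2 and Tyk2 were below all of them. Ifnar2, a chain of the type I interferon receptor, had a height of 0.51 and lay 0.38 above the next library. The kinase Tyk2 had a height of -0.26. Ifnar2 and Tyk2 were named after their values were seen. Of the 15 tested genes for receptors and JAK-STAT signalling, 4 were highest in AS female replicate 2 and 2 stood more than 1 above. Heights were 0.12 for the receptor chain Ifnar1, 0.01 for the kinase Jak1, -0.27 for the interferon gamma receptor chain Ifngr2 and -0.40 for Irf3, a transcription factor activated by the sensors. Usp18, the protease that removes Isg15 and dampens receptor signalling, was 1.66 above. Stat2 had a height of 0.21.

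Sensors also differed among themselves. Of 9 tested, 4 were highest in AS female replicate 2 and 1 stood more than 1 above, the RNA helicase Ddx58 (RIG-I), with a height of 1.12. Heights were 0.14 for the RNA-editing enzyme Adar, 0.06 for the kinase Tbk1, 0.15 for the RNA receptor Tlr3 and -0.06 for the adaptor Mavs. Ddx58 falls outside the naming rule and was chosen after its values were seen.

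Effectors and GTPases were mostly high. Of the 23 tested antiviral effectors 19 were highest in AS female replicate 2 and 8 stood more than 1 above. Lgals3bp, a secreted glycoprotein, was at 5.57 against 3.73, a height of 1.85. Ifitm2 had a height of 0.66, the nucleotide hydrolase Samhd1 of 0.26, the mitochondrial kinase Cmpk2 of 0.43 and Ifit2 of 0.39. Oasl2, an oligoadenylate synthetase relative chosen after its values were seen, had the largest, 1.94. Among 7 tested interferon-induced GTPases, which act on membranes around intracellular pathogens, 6 were highest in that library. Heights were 1.15 for Irgm1, 1.14 for Igtp, 0.90 for Gbp3 and 0.72 for Gbp2.

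Genes of antigen presentation by MHC class I differed among themselves. Of 13 tested genes 9 were highest in AS female replicate 2 and 2 stood more than 1 above, the heavy chains H2-D1 (height 1.42) and H2-K1 (height 1.28), whose close relatives can share reads. The proteasome activator subunits Psme1 and Psme2 had heights of 0.11 and 0.21. The inducible proteasome subunits Psmb8 and Psmb9 had heights of 0.72 and 0.63 and the heavy chain H2-Q4 one of 0.60, all 3 chosen after their values were seen. Psmb9 was higher in WT female replicate 3 than in AS female replicate 2. Psmb10, also an inducible proteasome subunit, had a height of only 0.01.

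**Figure D3:**
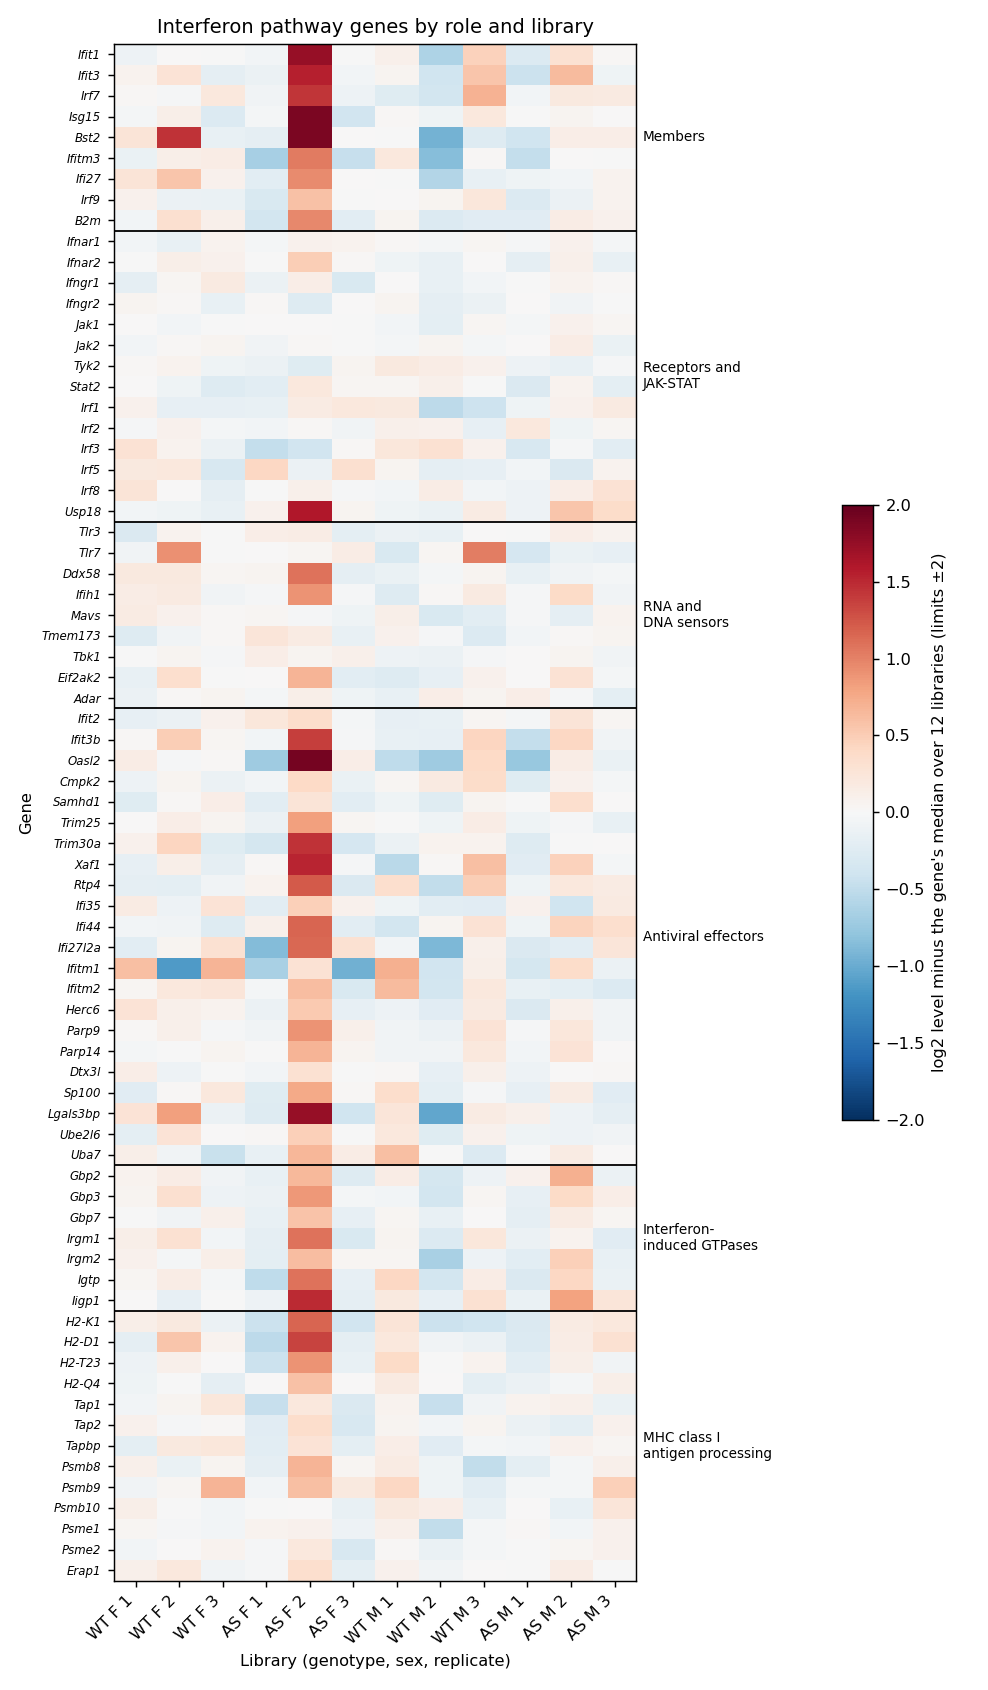
Level of the 9 genes and of other tested interferon pathway genes in each library, as the log2 difference from the gene's median over the 12 libraries, grouped by role; colours are limited to differences of -2 to 2. The column of AS female replicate 2 is red, in shades from pale to dark, for most effectors, GTPases and MHC heavy chains. It is pale for Jak1, Tbk1 and Mavs.

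The genes whose pattern was most like that of the 9 were found with Pearson's r between a gene's level and the mean of the 9 standardized levels over the 12 libraries. The first 10 included Irgm1 (r = 0.95), Ctss, Trim34a, Oasl2, Trim25, Gbp3, Parp9, Ifit3b and Gm24451 (r = 0.92). The pathway lists hold 67 of the 13849 genes compared, and 7 of the first 10 and 26 of the first 50 are on them. These values rest on 1 library. Over the 11 libraries without AS female replicate 2 the first 10 were Mmadhc (r = 0.90), Tgfbr3, Ganab, Gspt1, Cenpc1, Map4k3, Ecm2, Grsf1, Me2 and Gbp3 (r = 0.85), of which 1 is on the lists, and 5 of the first 50 are. Gbp3, a GTPase, was the gene in both lists of 10. The libraries share one normalization, and no p is given.

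The comparison of genotypes asks whether the AS mice differ from WT mice in these genes in each sex. Neither sex showed a called difference. In females 6 of the 9 genes had a higher mean in AS and 3 a lower one, with a median log2 difference of 0.14, where the median of all genes was 0.0048. None of the 9 passed limma with Benjamini-Hochberg adjustment over all genes tested (0%, which is 0 of 13858 genes; 438 genes and 0 of the 9 had an unadjusted p under 0.05), and the adjusted p was 1.00 for each. For all 9 genes the AS and WT females overlapped, where the groups did not overlap for 9.01% of all genes tested.

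By gene the female differences, AS minus WT, were 0.59 ± 0.42 for Ifit1 (SE, 3 mice per group), 0.55 ± 0.43 for Isg15, 0.41 ± 0.42 for Ifit3 and 0.34 ± 0.38 for Irf7. Those of Irf9 (0.14 ± 0.18), Bst2 (0.06 ± 0.52), B2m (-0.0002 ± 0.27), Ifi27 (-0.06 ± 0.25) and Ifitm3 (-0.08 ± 0.39) were nearer to 0. All 9 were smaller than the spread among the AS females, whose SD was 1.02 for Ifit1, 1.22 for Isg15 and 0.73 for B2m, against 0.05, 0.20 and 0.18 in the WT females.

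Leaving out AS female replicate 2, the highest library for all 9 genes, had to lower all of these differences, and it changed the sign of 5. The AS females then had a lower mean for 8 of the 9 genes and a median difference of -0.16. Those that had been below 0 came to -0.61 ± 0.27 for Ifitm3, -0.42 ± 0.14 for B2m and -0.41 ± 0.17 for Ifi27. Bst2 (-0.60 ± 0.41), Irf7 (-0.16), Isg15 (-0.15), Ifit3 (-0.13) and Irf9 (-0.10) changed sign, and Ifit1 came to 0.0025. Of the 9, 3 then had an unadjusted limma p under 0.05, as did 762 of the 13858 genes tested. None of the 9 passed limma with Benjamini-Hochberg adjustment (adjusted p 0.873 for B2m, 0.887 for Ifi27 and 0.906 for Ifitm3). Other single libraries changed the sign of differences near 0. Bst2 was -0.07 without WT female replicate 1 and -0.28 without WT female replicate 3. Without AS female replicate 1 Ifitm3, Ifi27 and B2m came to 0.24, 0.17 and 0.25, and without AS female replicate 3 to 0.14, 0.06 and 0.17. Without WT female replicate 2 Ifi27 came to 0.07 and B2m to 0.09. Without WT female replicate 1, whose sex label Xist did not match, 5 of the 9 were higher and 4 lower in AS females, with a median of 0.21.

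**Figure D4:**
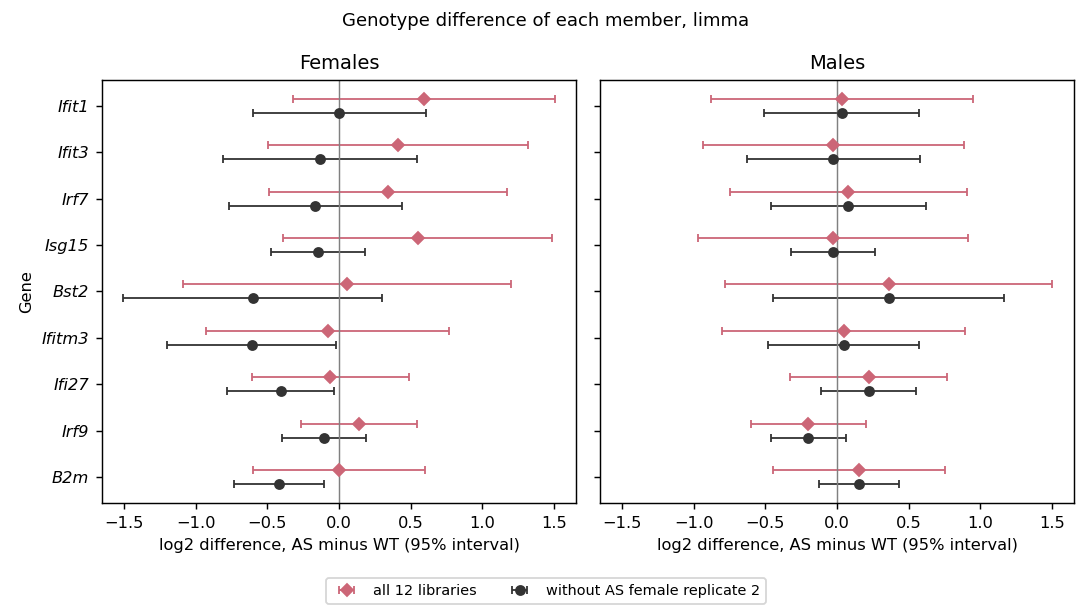
Difference between AS and WT means of each of the 9 genes in females (left) and males (right), in log2 units with 95% intervals from limma, with all 12 libraries (diamonds) and without AS female replicate 2 (circles). With all libraries every interval includes 0; without that library the female estimates move left and those of Ifitm3, Ifi27 and B2m have intervals below 0 before adjustment.

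In males 6 of the 9 genes were higher and 3 lower in AS, with a median difference of 0.05, and none was called (limma, Benjamini-Hochberg adjusted p 0.874 to 0.994; 0% of all genes were called, 890 had an unadjusted p under 0.05 and 0 of the 9 did). The differences were 0.36 ± 0.52 for Bst2, 0.22 ± 0.25 for Ifi27, 0.15 ± 0.27 for B2m, 0.08 ± 0.38 for Irf7, 0.05 ± 0.39 for Ifitm3, 0.03 ± 0.42 for Ifit1, -0.03 ± 0.42 for Ifit3, -0.03 ± 0.43 for Isg15 and -0.20 ± 0.18 for Irf9. AS and WT males overlapped for all 9 genes, and the male groups did not overlap for 11.2% of all genes tested. Single libraries also turned the differences near 0. Without WT male replicate 2, Ifit1 was -0.27, Ifitm3 -0.28 and Irf7 -0.12, and without WT male replicate 1 Irf7 was -0.05. Without WT male replicate 3, Ifit3 was 0.21 and Isg15 0.05. Without AS male replicate 2, Ifit1 was -0.11 and Ifitm3 -0.04. Ifit3 was 0.21 without AS male replicate 1 and 0.04 without AS male replicate 3, and Ifitm3 was -0.03 without AS male replicate 3.

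Over both sexes 7 of the 9 were higher in AS and 2 lower, with a median difference of 0.19 and adjusted p of 0.963 to 0.998 (limma, Benjamini-Hochberg; 0% of all genes called, 741 genes and 0 of the 9 at an unadjusted p under 0.05). Without AS female replicate 2 the count was 1 higher and 8 lower, with a median of -0.09, and without the library labelled WT female replicate 1 it was 8 higher and 1 lower, with a median of 0.14. The difference between the male and the female genotype effects was above 0 for 4 genes and below 0 for 5, with a median of -0.26 and none called (limma, adjusted p of 0.987 or more; 0% of all genes called, 522 genes and 0 of the 9 at an unadjusted p under 0.05). Without AS female replicate 2 it was above 0 for 8 of the 9, with a median of 0.24, and without WT female replicate 1 for 4 of the 9, with a median of -0.24.

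None of the 67 other pathway genes was called for genotype in either sex or over both (limma, Benjamini-Hochberg). In females 48 were higher and 19 lower in AS, with a median difference of 0.09. Without AS female replicate 2 the female counts were 18 higher and 49 lower, with a median of -0.11, and without the library labelled WT female replicate 1 they were 44 and 23, with a median of 0.07. The gene with the smallest unadjusted p in each of these comparisons was Irf3. Its levels were 4.50, 4.29 and 4.10 in the WT females against 3.74, 3.83 and 4.23 in the AS females, and 4.44, 4.51 and 4.29 in the WT males against 3.89, 4.19 and 4.00 in the AS males. Male groups did not overlap for Irf3 and female groups did. Its difference was -0.36 ± 0.14 in females, -0.39 ± 0.14 in males and -0.38 ± 0.10 over both sexes (unadjusted p = 0.00261, limma adjusted p = 0.661). Without AS female replicate 2 the Irf3 difference over both sexes was -0.35, and without the library labelled WT female replicate 1 it was -0.26 in females and -0.32 over both sexes.

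Between the sexes, WT males were above WT females for 4 of the 9 genes and below for 5, and none was called (limma; 0.0289% of all genes tested, 4 genes, were called, and 1067 genes and 0 of the 9 had an unadjusted p under 0.05). Bst2 differed by -0.92 ± 0.52 (adjusted p = 0.691, limma) and Ifi27 by -0.55 ± 0.25 (adjusted p = 0.651, limma), both lower in males. Without the library labelled WT female replicate 1, 3 of the 9 were higher in males and 6 lower, Bst2 differed by -1.05 and Ifi27 by -0.57. Without WT female replicate 2 the Bst2 difference was -0.46. In AS mice all 9 genes were lower in males, with a median of -0.31 and none called (limma; 0.0361% of all genes, 5 genes, were called, and 503 genes and 0 of the 9 had an unadjusted p under 0.05). Without AS female replicate 2 all 9 were higher in males, with a median of 0.13, and none was called. For each of the 9 genes, group means that were neighbours in order of level lay closer to each other than the larger of their SDs.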

How the data were processed

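Polyadenylated RNA of 12 ventral hippocampi was sequenced as paired-end libraries that all carry lane number 7. The authors deposited 1 table of values per gene and library, read here as the natural log of an RSEM abundance plus 1. The lowest entry is 0.100 and the highest 10.08. The submitters' processing notes name Trimmomatic, Bowtie2 and RSEM with GRCm38 (mm10), and versions, log base, filter and normalization are not given in the sources used here. Back-transformed libraries sum to 547558 to 587587. Most values of the middle range recur in every column, as after quantile normalization, which would remove a shift common to most genes.

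Deposited values were divided by the natural log of 2 to give log2(abundance + 1), and 93 genes whose mean abundance was below 1 were dropped. Symbols came from the mouse annotation, in which 216 identifiers had none. The package limma 3.58.1 in R 4.3.3 fitted the 4 group means over the 12 libraries (trended moderated variances, 8 residual degrees of freedom), with 6 contrasts and Benjamini-Hochberg adjustment over the 13858 genes tested, called at an adjusted p under 0.05. Intervals are at 95%. The fit was tested on simulated data. P-values and errors rest on the spread between libraries, each from 1 mouse. That spread includes any counting error, which cannot be given apart without depth.

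The members, lists and tests were chosen with earlier results of these data known. Besides the 9 genes, the text names in each pathway list the 4 tested genes of highest mean level and Stat2, Usp18, Ifit2, Oas2 and Mx1 where tested, plus any gene called and the 10 genes most like the 9. Genes of the lists without a row, among them Oas2 and Mx1, were not analysed here, and some genes of the lists enter the counts but are not reported here by name. Promoter windows are RefSeq's on GRCm38.p6. Alternatives were another added constant, base 2, other filters, fewer groups, library quality weights, the choroid plexus marker mean as a covariate, no libraries high in those markers, and each library left out in turn. The heights in AS female replicate 2 were recomputed under 3 of these, chosen after seeing the data.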

Additional observations from a re-analysis of the deposited data

How the results depend on the processing

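Genes more than 1 log2 unit above the median of the others in AS female replicate 2 numbered 7 in the report. With 0.1 as the added constant they numbered 7, and with base 2 they numbered 5. Without the 3 other libraries richest in choroid plexus markers they numbered 7. The median heights of the 9 were 1.69, 1.01 and 1.49 in these 3 settings. The last setting leaves AS female replicate 2 as the only library high in those markers, so it cannot show their part in the height. Of the 1068 values of the 54 differences of the 9 genes under 20 alternatives, 117 changed sign and 0 were called by limma (lowest adjusted p 0.535). Many of these values could not change sign. Of the 54 differences 45 changed sign at least once, and 24 did without AS female replicate 2. With base 2 every difference is scaled alike, so no sign could change. With no filter, only the groups compared, or a mean abundance of at least 5 (7 genes left), the group means are unchanged. These settings therefore say nothing about how firm the signs are. Leaving out a library moved only the differences that use its group. The signs of differences this near to 0 are limited by 3 mice per group. No paired analysis was possible because the replicate numbers follow accession order and pair no mice.

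With library quality weights the difference was -0.24 for Bst2 in females, -0.12 for Ifit1 in males and -0.0745 for Ifitm3 in males. With the mean of the choroid plexus markers as a covariate, all 9 genes were higher in AS females, with a median of 0.51 and 0 called. Of the 9, 3 had an unadjusted limma p under 0.05, as did 464 of the 13858 genes tested. Ifitm3, Ifi27 and B2m came to 0.15, 0.13 and 0.21 in females, Ifit1, Irf7 and Ifitm3 to -0.0904, -0.0039 and -0.0575 in males, and the sex difference of Bst2 in WT to 0.12. Without the 4 libraries highest in those markers, which leaves 2 AS females and 1 WT female, assumed to vary like the other groups, Ifit1, Irf7 and Irf9 came to -0.0181, -0.31 and -0.0272 in females, and Ifit1 and Ifitm3 to -0.11 and -0.0358 in males. The cause of these changes was not tested.

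With single libraries left out, the female differences ranged from -0.13 to 0.70 for Ifit3, -0.16 to 0.60 for Irf7, -0.15 to 0.98 for Isg15, -0.60 to 0.52 for Bst2, -0.61 to 0.24 for Ifitm3, -0.41 to 0.17 for Ifi27, -0.10 to 0.34 for Irf9 and -0.42 to 0.25 for B2m. The male ones ranged from -0.27 to 0.27 for Ifit1, -0.32 to 0.21 for Ifit3, -0.12 to 0.41 for Irf7, -0.0960 to 0.0495 for Isg15 and -0.28 to 0.26 for Ifitm3. Irf3 kept its sign under all 20 alternatives in females, males and both sexes, with 0 calls.

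Over all genes tested, leaving out single libraries gave 0 to 1 called genes for genotype in females, 0 to 1 in males, 0 to 2 over both sexes, 0 to 1 for their difference, 4 to 8 for sex in WT and 2 to 8 for sex in AS. Without the 4 marker-rich libraries these counts were 5, 1, 2, 2 and 7 for the first 5 comparisons. Sex in AS gave 2 calls with 0.1 added and 3 with only the groups compared, and with a mean abundance of at least 5 sex in WT gave 2 and sex in AS 3. None of the 9 genes and none of the 67 other pathway genes was called under any alternative.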
